A study of Mus musculus with 7 samples.

Results

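Cryab, Hspb1, Hspb8, Hspa1a, Hspa1b, Hspa8, Hsph1, Dnajb1, Hsp90aa1 and Hsf1 encode small heat shock proteins, the HSP70, HSP110, HSP40 and HSP90 chaperones, and the transcription factor that switches them on in heat. These 10 genes were read by their symbols out of a table of 48440 genes measured in LSK cells, the Lin-Sca1+cKit+ fraction of the bone marrow (BM) in which hematopoietic stem cells and multipotent progenitors are found. The BM donors were wild-type mice or carried a constitutive PROSER1 KO made with an endonuclease, and their BM was given to C57BL/6 recipients irradiated with 9.5 Gy, and LSK cells were sorted from the recipients 77 days later, giving 4 wild-type and 3 PROSER1 KO samples. Both groups therefore share irradiation of the host and transplantation, the KO was present in every donor cell and not in stem cells alone, and the labels name no sort on donor origin, so that LSK cells of the host could be included. No treatment followed, the age of the donors is not given in the sources used here, and each sample is labelled as a separate biological replicate. Cryab was chosen by its measured values in these libraries, which differ between the groups, so that its group difference is given as a description with no test, whereas the other 9 genes were added as its relatives and partners.

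The libraries held 33143619 to 45140743 read pairs on genes, and a count of 0 is read as at most 3 read pairs, or 2.54 to 3.48 normalized counts (counting error only). Values are normalized counts, the read pairs of a gene divided by 1 size factor of its library. All 12 LSK and stem cell markers had more than 3 read pairs in every library, which shows their presence and not the purity of the fraction. Their normalized counts summed to 121893 to 135786 in wild-type and 121506 to 125348 in PROSER1 KO libraries. Those of 10 plasma and B cell markers summed to more, 1379677 to 3226257 and 1300878 to 1909012. Kit lay between 25535 and 32357 and Ly6a, which encodes Sca1, between 3961 and 6822. Proser1 mRNA was not lower in the libraries labelled PROSER1 KO (2338 to 2464 against 2019 to 2153), so that the direction of each difference rests on the labels. Single libraries stood apart in genes of other cells. PROSER1 KO replicate 1 had 697 normalized counts of the T cell gene Cd3g against 20.9 to 52.9 elsewhere. Over the 10 T and innate lymphoid markers it did not stand alone. It was the highest library in 4 of them, as was wild-type replicate 1 in 4. Wild-type replicate 4 was the highest in all 10 plasma and B cell markers. Apart from such cell markers, wild-type replicate 1 was the highest in 17 of 20 tested immediate early genes.

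Heat shock proteins are molecular chaperones, which hold unfolded or newly made proteins and keep them from clumping. Small heat shock proteins such as alphaB-crystallin, the product of Cryab, form large oligomers that bind unfolded clients without using ATP, and pass them to HSP70. HSP70 binds and releases clients in an ATP cycle that J-domain proteins (HSP40) start and HSP110 and BAG proteins reset, and HSP90 then completes the folding of kinases and receptors. Heat shock factor 1, encoded by Hsf1, forms trimers when unfolded proteins accumulate and binds inverted repeats of GAA, called heat shock elements, in the promoters of these genes. In the hematopoietic system, chaperones are best known for their part in red cell development and in the response to stress.

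The promoters of the 2 inducible HSP70 genes and of Hspb1 are shown because they hold letters that match the heat shock element. The sequences are the 250 bases before the start site in RefSeq (GRCm38.p6), written 5′ to 3′ on the strand of the gene, with the heat shock element motif in capitals.
Hspb1 (chr5:135887669-135887918, plus strand): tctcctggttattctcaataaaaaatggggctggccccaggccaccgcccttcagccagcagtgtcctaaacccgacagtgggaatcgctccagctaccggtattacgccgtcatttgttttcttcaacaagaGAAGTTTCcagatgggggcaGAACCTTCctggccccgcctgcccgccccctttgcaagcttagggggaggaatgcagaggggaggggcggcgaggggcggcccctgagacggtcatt
Hspa1a (chr17:34972157-34972406, minus strand): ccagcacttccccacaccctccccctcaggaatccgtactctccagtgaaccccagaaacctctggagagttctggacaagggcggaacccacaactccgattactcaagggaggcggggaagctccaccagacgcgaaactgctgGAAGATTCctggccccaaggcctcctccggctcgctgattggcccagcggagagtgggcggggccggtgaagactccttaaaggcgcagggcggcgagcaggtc
Hspa1b (chr17:34959239-34959488, minus strand): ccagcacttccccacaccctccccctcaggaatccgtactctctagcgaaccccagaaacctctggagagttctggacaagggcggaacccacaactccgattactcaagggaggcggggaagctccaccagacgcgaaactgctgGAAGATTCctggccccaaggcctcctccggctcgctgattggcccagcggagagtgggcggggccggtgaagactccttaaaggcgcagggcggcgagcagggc
In these 3 sequences the motif was GAANNTTC, which is its own reverse complement and was therefore searched on both strands at once. It began 117 and 97 bases before the start site of Hspb1 and 104 bases before those of Hspa1a and Hspa1b, whose sequences were equal at 247 of 250 positions (98.8%). A window of 300 bases, 250 before and 50 after the start site, was read for 6 of the 10 genes (Hspb1, Hspb8, Hspa1a, Hspa1b, Hsph1 and Dnajb1, 8 windows in all) and was searched for GAANNTTC and TTCNNGAA. Of these genes, 5 had a motif and Dnajb1 had none in either of its windows. Among all 32851 windows, 15.1% held a motif (7.86% GAANNTTC and 8.52% TTCNNGAA). Of the heat-inducible targets of heat shock factor 1 that had a window, 12 of 21 held a motif (57.1%), against 17.0% of 27025 genes. A match describes letters only, and no match says only that these letters are not in the window. Cryab, Hspa8, Hsp90aa1 and Hsf1 were not read.

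The 10 genes spanned a wide range of levels, from Hspa8, among the highest of all genes, to Hspa1a, near the limit of detection. Levels between genes were compared as normalized counts per kb of exon over the 7 libraries. Hspa8, which encodes the constitutive cytosolic HSP70 (HSC70), had 13030.0 ± 931 per kb (SD, n = 7) and lay above 99.1% of tested genes. Hsp90aa1, the inducible cytosolic HSP90, followed with 6718 ± 441, Dnajb1 with 893 ± 69.7, Hsph1 with 363 ± 63.1 and Hsf1 with 325 ± 15.5. The ranges of Hspa8, Hsp90aa1, Dnajb1 and Hsph1 did not overlap, whereas those of Hsph1 and Hsf1 did. The other 5 genes lay below Hsf1 with no overlap. Cryab had 30.7 ± 28.3 per kb, Hspb1 18.2 ± 8.71, Hspb8 11.4 ± 3.17, Hspa1b 5.15 ± 3.56 and Hspa1a 1.03 (0 to 2.59), and in this stretch the range of each gene overlapped that of the next.

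**Figure D1:**
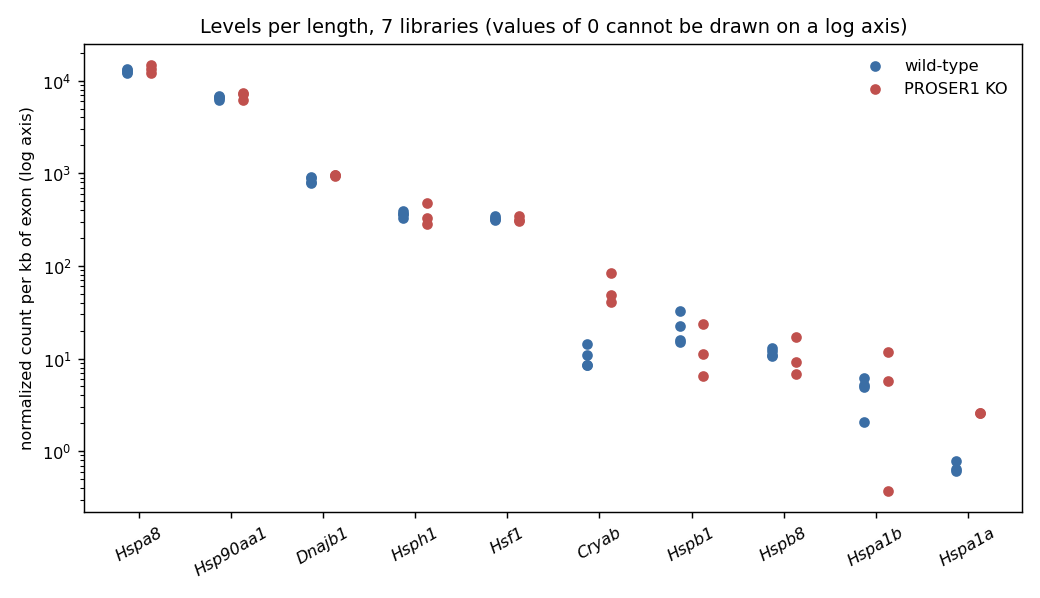
Normalized counts per kb of exon (log axis) of the 10 genes in order of their mean, with 1 point per library in wild-type (blue, n = 4) and PROSER1 KO (red, n = 3). Hspa8 averaged 13030.0 and Hspa1a 1.03, and the 2 libraries with 0 normalized counts of Hspa1a cannot be drawn on this axis.

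The order of the 3 small heat shock proteins by mean level differed between the groups only in the place of Cryab. Since Cryab was chosen by these values, the order repeats its group difference and is no further result. The wild-type ranges of Hspb8 and Cryab overlapped, as did the PROSER1 KO ranges of Hspb1 and Hspb8. Per kb, wild-type libraries averaged 21.4 for Hspb1, 11.6 for Hspb8 and 10.6 for Cryab, and PROSER1 KO libraries averaged 57.5 for Cryab, 13.8 for Hspb1 and 11.0 for Hspb8. Hspb6, a small heat shock protein of muscle that is not among the 10 genes, was the most abundant of its family in both groups (87.3 and 78.8 per kb).

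Cryab (ENSMUSG00000032060) lies on the plus strand of chromosome 9 from 50751325 to 50756636 in GRCm38. In the order of the replicate numbers, the wild-type libraries had 21.2, 12.6, 12.6 and 16.2 normalized counts of Cryab and the PROSER1 KO libraries 72.0, 123 and 60.5, from 11 to 22 read pairs in wild-type and from 63 to 145 in PROSER1 KO libraries. Every PROSER1 KO library lay above every wild-type library, and PROSER1 KO replicate 2 was the highest. The wild-type mean was 15.7 ± 4.04 (SD, n = 4) and the PROSER1 KO mean 85.1 ± 33.1 (SD, n = 3), a ratio of 5.43 and a log2 fold change of 2.33 on the scale of log2(normalized count + 1). These are the values for which Cryab was taken, and they are not a test. In bulk RNA, a higher level in each cell and a larger number of cells that express the gene cannot be told apart.

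Of the 9 genes that passed the minimum mean of 10 normalized counts, 1 was past the thresholds of limma (more than 1.5-fold change and an adjusted p-value under 0.05), beside 0.258% of all 16251 tested genes (42 genes). That gene was Cryab, and since it was chosen by these same values, its place past the thresholds is no test and supports nothing. It was also not stable, since Cryab was past them without wild-type replicate 1 and short of them without any other single library. As a description, its log2 fold change was 2.48, 2.25, 2.25 and 2.36 without wild-type replicates 1, 2, 3 and 4, and 2.42, 2.04 and 2.54 without PROSER1 KO replicates 1, 2 and 3. Hspa1a was not tested. Among the other 8 tested genes, the lowest adjusted p-value with limma was 0.406 (Dnajb1), and 1 had an unadjusted p-value under 0.05, against 9.73% of all tested genes.

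**Figure D2:**
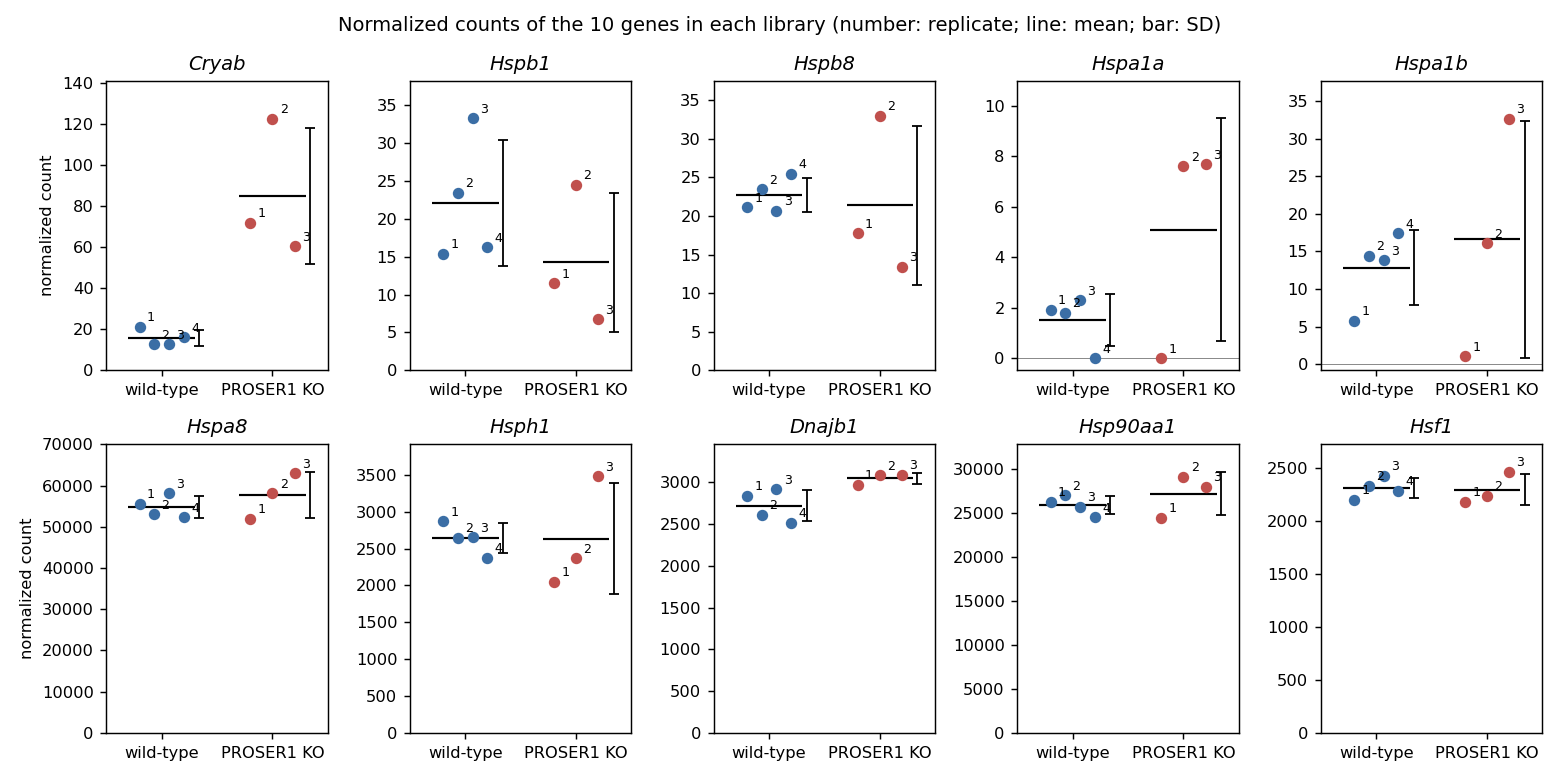
Normalized counts of each of the 10 genes by library, with its own linear axis, points numbered by replicate, a line at the group mean and a bar of 1 SD beside it (wild-type n = 4, PROSER1 KO n = 3). The groups were apart for Cryab (12.6 to 21.2 against 60.5 to 123) and for Dnajb1 (2516 to 2916 against 2969 to 3087), and overlapped for the other 8 genes. Cryab was chosen by this difference, and the groups were apart in 10% of all tested genes.

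Hspb1 and Hspb8 were at low levels, with 7 to 39 read pairs in each library. Hspb1 encodes HSP25, a small heat shock protein that binds actin and unfolded proteins. Normalized counts of Hspb1 were 15.4, 23.4, 33.3 and 16.2 in wild-type libraries, against 11.5, 24.5 and 6.72 in PROSER1 KO libraries, so that the highest PROSER1 KO library lay within the wild-type range. The log2 fold change was -0.71 (standard error 0.489, 95% interval -1.81 to 0.39, adjusted p = 0.683 from limma). Of the windows of 50 bases in the Hspb1 transcript, 51.6% are also found in the pseudogene Hsp25-ps1, so that its reads are uncertain.

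Hspb8, which acts with the cochaperone BAG3 in the removal of clients by autophagy, had 21.2, 23.4, 20.7 and 25.5 normalized counts in wild-type libraries, against 17.7, 33.0 and 13.4 in PROSER1 KO libraries. The wild-type libraries were close together and lay inside the span of the PROSER1 KO libraries. The difference on the log2 scale was -0.17 ± 0.368 (standard error), with an adjusted p = 0.925 from limma, and it was 0.10 without PROSER1 KO replicate 3. In Cryab, Hspb1 and Hspb8 alike, replicate 2 was the highest of the PROSER1 KO libraries and replicate 3 the lowest.

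Hspa1a and Hspa1b, which encode the strictly heat-inducible HSP70 and lie side by side on chromosome 17 (34969190 to 34972156 and 34956436 to 34959238), were near the limit of detection. Hspa1a had 1.92, 1.80, 2.30 and 0 normalized counts in wild-type libraries, against 0, 7.62 and 7.68 in PROSER1 KO libraries, where a count of 0 allows up to 3.48 in wild-type replicate 4 and 3.13 in PROSER1 KO replicate 1. Hspa1b had 5.77, 14.4, 13.8 and 17.4 in wild-type libraries, against 1.04, 16.1 and 32.6 in PROSER1 KO libraries, so that the lowest and the highest library were both PROSER1 KO. Its log2 fold change was -0.30 (95% interval -2.27 to 1.67, adjusted p = 0.948 from limma), and its sign depended on the setting: it was 0.88 without PROSER1 KO replicate 1, 0.38 with DESeq2 and 0.39 with edgeR. Of the windows of 50 bases in their transcripts, 58.8% of Hspa1a are in Hspa1b and 62.3% of Hspa1b are in Hspa1a, so that the reads of these genes cannot be cleanly divided between them. With both genes summed, the log2 fold change was -0.21 (adjusted p = 0.968 from limma).

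Hspa8 (chromosome 9, 40800984 to 40810087) had 55589.8, 53028, 58145 and 52401 normalized counts in wild-type libraries, against 52001, 58109 and 63019 in PROSER1 KO libraries. PROSER1 KO libraries were both the lowest and the highest of the 7. With limma the log2 fold change was 0.07 (95% interval -0.09 to 0.23, adjusted p = 0.796), an interval that leaves room for a change of at most 1.18-fold at this confidence. Of its transcript windows, 74.8% are shared with other genes, mostly the pseudogene Gm15459.

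Hsph1 encodes HSP110, which exchanges the nucleotide of HSP70. Normalized counts of Hsph1 were 2873, 2649, 2657 and 2377 in wild-type libraries, against 2051, 2368 and 3485 in PROSER1 KO libraries. The PROSER1 KO libraries held the lowest, the next lowest and the highest value, and the means were nearly equal at 2639 ± 204 (SD, n = 4) and 2635 ± 753 (SD, n = 3). The log2 fold change was -0.04 (95% interval -0.38 to 0.31, adjusted p = 0.965 from limma), and 0.13 without PROSER1 KO replicate 1. In the PROSER1 KO group the highest library was 1.70-fold above the lowest, and a ratio as large was seen in 1.59% of the 4854 genes with a mean level within 2-fold of Hsph1.

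Dnajb1 encodes the HSP40 that delivers clients to HSP70. Normalized counts of Dnajb1 were 2836, 2609.7, 2916 and 2516 in wild-type libraries, against 2969, 3086 and 3087 in PROSER1 KO libraries. All PROSER1 KO libraries lay above all wild-type libraries, as they did in 5.17% of all tested genes (all below in 4.83%). The mean was 2719 ± 188 (SD, n = 4) in wild-type and 3047 ± 67.8 (SD, n = 3) in PROSER1 KO libraries, and the log2 fold change was 0.17 (standard error 0.061, 95% interval 0.03 to 0.30, adjusted p = 0.406 from limma), which did not pass the threshold. It was between 0.13 and 0.20 with each library left out.

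Hsp90aa1 had 26254, 26994, 25661 and 24506 normalized counts in wild-type libraries, against 24427, 29095 and 27929.7 in PROSER1 KO libraries. PROSER1 KO replicates 2 and 3 were the highest of all and replicate 1 the lowest. The log2 fold change was 0.07 (95% interval -0.08 to 0.22, adjusted p = 0.786 from limma), and 58.5% of its transcript windows are shared with other genes, mostly the pseudogene Gm12346. Hsf1 had 2203, 2338, 2432 and 2289.6 normalized counts in wild-type libraries, against 2188, 2244 and 2469 in PROSER1 KO libraries, with the lowest and the highest value again in the PROSER1 KO group. Its log2 fold change was -0.01 (95% interval -0.14 to 0.12, adjusted p = 0.975 from limma), and it was just above 0 without wild-type replicate 3, PROSER1 KO replicate 1 (0.02) or replicate 2. Hsf1 mRNA does not measure the activity of the factor, which is set on the protein.

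Among the tested genes other than Cryab, the extremes often lay in 2 libraries of the PROSER1 KO group. Of the 9 tested genes, 5 had their lowest value in PROSER1 KO replicate 1 (Hspa1b, Hspa8, Hsph1, Hsp90aa1 and Hsf1) and 5 had their highest in PROSER1 KO replicate 3 (Hspa1b, Hspa8, Hsph1, Dnajb1 and Hsf1). The shares over all tested genes were not computed, so that these counts are not shown to be a trait of these genes. PROSER1 KO replicate 1 was also the lowest in 4 of 12 LSK and stem cell markers and 3 of 16 chaperonin and prefoldin genes. PROSER1 KO replicate 3 was the highest in 1 of each of these lists. Hspa1b lay 2.54 below its own mean in PROSER1 KO replicate 1 and 1.5 above it in replicate 3 on the log2 scale, Hsph1 0.34 below and 0.42 above, and Hspa8 0.10 below and 0.17 above. Cryab followed another order, with deviations of 1.16, 1.92 and 0.91 in PROSER1 KO replicates 1 to 3. Hspb1 (-0.52, 0.51 and -1.21) and Hspb8 (-0.26, 0.60 and -0.64) had the same order in these libraries. Of 10 T and innate lymphoid markers, 4 were highest in PROSER1 KO replicate 1, among them Cd3g and Cd3e, and 4 in wild-type replicate 1 (median deviations of 0.44 and 0.51), and 8 of the 10 had a negative log2 fold change. The part of these cells in the values of PROSER1 KO replicate 1 was not tested.

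**Figure D3:**
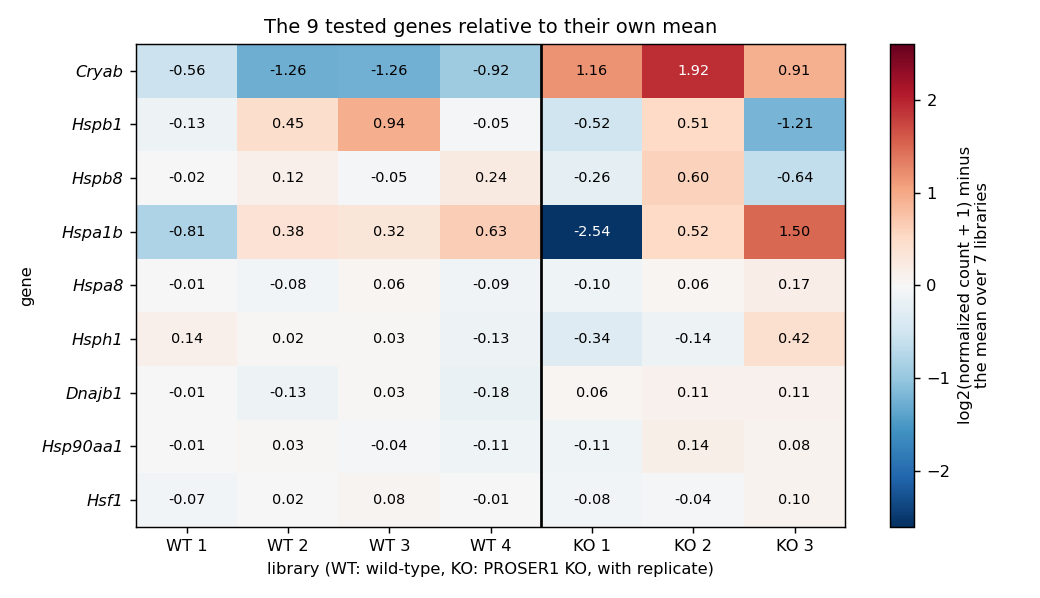
Deviation of each of the 9 tested genes from its own mean over 7 libraries, in log2(normalized count + 1), with libraries in columns (WT, wild-type; KO, PROSER1 KO) and blue for below and red for above the mean. Cryab is red in all 3 PROSER1 KO libraries (0.91 to 1.92) and blue in all 4 wild-type libraries, whereas Hspa1b runs from -2.54 to 1.5 within the PROSER1 KO group.

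In the wider chaperone network limma called no gene other than Cryab, which was chosen by its values. Over all 16251 tested genes limma called 0.258%, so that the absence of further calls says little about the network. Of 123 distinct genes in 7 family lists and a list of heat-inducible targets of heat shock factor 1, 113 were tested. With limma, 46 genes had a positive and 67 a negative log2 fold change, and the median was -0.02, beside 0.001 and 50.6% positive over all tested genes. Before adjustment, 7 genes including Cryab had p-values under 0.05 (9.73% over all tested genes), and the groups did not overlap in 6 (5.31%, against 10% of all tested genes). DESeq2 and edgeR called no further gene of these lists, where DESeq2 called 0.873% and edgeR 0.246% of the genes they tested.

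**Figure D4:**
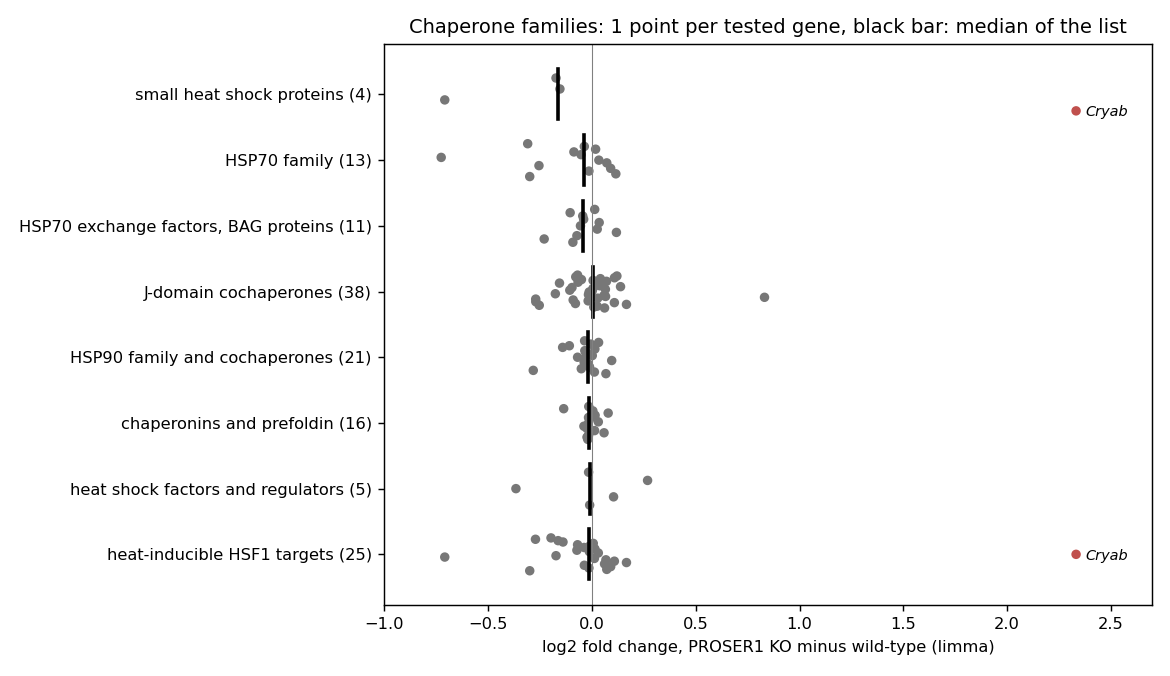
Log2 fold change between PROSER1 KO and wild-type libraries (limma) of each tested gene of 7 chaperone families and the heat-inducible targets of heat shock factor 1, with the number tested in brackets, a black bar at the median and called genes in red. Cryab, at 2.33 in the lists of small heat shock proteins and of heat-inducible targets, was chosen by this difference, so that its mark is no test. The medians of the 8 lists lie between -0.16 and 0.01.

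Among 9 small heat shock proteins, 4 were tested, 1 of them with a positive and 3 with a negative sign, and the median was -0.16. Hspb6 had 191, 173, 206 and 233 normalized counts in wild-type libraries, against 163, 218 and 162 in PROSER1 KO libraries (adjusted p = 0.807 from limma, at a log2 fold change of -0.15). Hspb3 and Hspb7 were at 0 in all libraries, where 3 read pairs are the limit, and Cryaa, the lens partner of Cryab, had at most 3.13 normalized counts.

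In the HSP70 family, 13 of 15 genes were tested, 5 with a positive and 8 with a negative sign (median -0.04), and the lowest adjusted p-value was 0.396 with limma. That gene was Hyou1, a chaperone of the endoplasmic reticulum, with a log2 fold change of -0.31. Of the 11 nucleotide exchange factors and BAG proteins, 4 were positive and 7 negative (median -0.04). Bag2, an inhibitor of the ubiquitin ligase CHIP, was at -0.23 (adjusted p = 0.559 from limma) and Bag4 at 0.12 (adjusted p = 0.581 from limma).

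The 38 J-domain cochaperones were split into 21 positive and 17 negative signs (median 0.01). The lowest adjusted p-value with limma, 0.325, belonged to Dnajb11, the J-domain partner of the endoplasmic HSP70, with 4700.4, 4232, 3910.3 and 4956 normalized counts in wild-type libraries, against 3403, 3793 and 3839 in PROSER1 KO libraries. All PROSER1 KO libraries lay below all wild-type libraries, at a log2 fold change of -0.27. Dnajb1, with its positive sign, had the next lowest.

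Of the 21 genes of the HSP90 family and its cochaperones, 6 were positive and 15 negative (median -0.02). Hsp90ab1, the constitutive cytosolic HSP90, had the highest level per kb of all 123 genes (33695 ± 1587, SD, n = 7), ahead of the polyubiquitin gene Ubb (13846) and of Hspa8. Its log2 fold change was 0.01 (95% interval -0.14 to 0.16, adjusted p = 0.974 from limma), and -0.10 with quantile normalization. That of Ubb was 0.01 (adjusted p = 0.986 from limma) and was below 0 without wild-type replicate 3, wild-type replicate 4 or PROSER1 KO replicate 1 (-0.06). Unc45a, a cochaperone that folds myosin, was at -0.14 (adjusted p = 0.579 from limma).

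The chaperonin subunits and prefoldin, which fold actin and tubulin, gave 6 positive and 10 negative signs of 16 (median -0.02). Pfdn5 had 4539.8, 4392, 4385 and 4492 normalized counts in wild-type libraries, against 4067, 4177 and 3915 in PROSER1 KO libraries, so that the groups were apart (adjusted p = 0.337 from limma, at a log2 fold change of -0.14), and Vbp1, another prefoldin subunit, was at 0.08 (adjusted p = 0.771 from limma). Of 8 heat shock factors and regulators, 5 were tested, 2 positive and 3 negative (median -0.01). Hsf2, which pairs with Hsf1 in mixed trimers, had a log2 fold change of 0.10 (adjusted p = 0.729 from limma) and Hsf2bp, which binds Hsf2, of 0.27 (adjusted p = 0.694 from limma). Hsf3 and Hsf5 had at most 1.92 and 8.64 normalized counts.

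The heat-inducible targets of heat shock factor 1 as a list had 11 positive and 14 negative signs among 25 tested genes (median -0.01), with Cryab the only gene called. Hspa4l, an HSP110 relative, had the next lowest p-value after Cryab and Dnajb1, with a log2 fold change of 0.09 (adjusted p = 0.604 from limma). The 24 targets other than Cryab varied within both groups: their median deviation was -0.10 in PROSER1 KO replicate 1 and -0.09 in wild-type replicate 4, against 0.07 in PROSER1 KO replicate 2 and 0.08 in wild-type replicate 2. PROSER1 KO replicate 1 was the lowest library in 9 of the 24 and wild-type replicate 4 in 7. The immediate early genes, which rise within minutes of cell handling, had another order. Their median deviation was highest in wild-type replicate 1 (1.02) and lowest in wild-type replicate 3 (-0.45). With limma 0 of 20 tested were called, beside 0.258% of all tested genes. At an unadjusted limma p-value under 0.05 there were 0, beside 9.73%. In that list Nr4a1 had the lowest p-value (adjusted p = 0.540 from limma, at a log2 fold change of -0.35), before Ier5 (-0.28, adjusted p = 0.586 from limma).

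The chaperones of the endoplasmic reticulum gave the lowest p-values of the HSP70 family and of the J-domain cochaperones, and most of them were highest in the library that was also highest in plasma cell genes. This list of 10 was put together after its values had been seen. In it, 8 genes had a negative and 2 a positive sign, the median was -0.13, 0 were called with limma, and 3 had an unadjusted p-value under 0.05 (Hspa5, Hyou1 and Dnajb11), beside 9.73% of all tested genes. Since the list was made from seen values, this count supports nothing. Hspa5, which encodes BiP, had 24488, 19908, 20593 and 24739 normalized counts in wild-type libraries, against 16441, 19125 and 20824 in PROSER1 KO libraries (adjusted p = 0.447 from limma, at a log2 fold change of -0.25). Hyou1 had 11155, 9098, 9483 and 10739 against 6758, 8649 and 9219. Hsp90b1, which encodes GRP94, had 33435, 30788, 25435 and 40665 against 22602, 25717 and 31698 (adjusted p = 0.591 from limma, at a log2 fold change of -0.28). All 3 overlapped between the groups, with PROSER1 KO replicate 1 the lowest library.

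Plasma cells depend on these chaperones to secrete immunoglobulin. Jchain, which encodes the joining chain of IgM and IgA, had 263799, 217345, 151607 and 384345 normalized counts in wild-type libraries, against 199467, 179939 and 269328 in PROSER1 KO libraries, and all 10 plasma and B cell markers had a negative log2 fold change (lowest adjusted p = 0.540 from limma, Ms4a1). Wild-type replicate 4 was the highest library for Jchain and for 7 of the 10 endoplasmic reticulum chaperones. PROSER1 KO replicate 1, the lowest library for 8 of the 10, was not the lowest for Jchain, where wild-type replicate 3 was. The part of plasma cells in the levels of these chaperones was not tested.

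**Figure D5:**
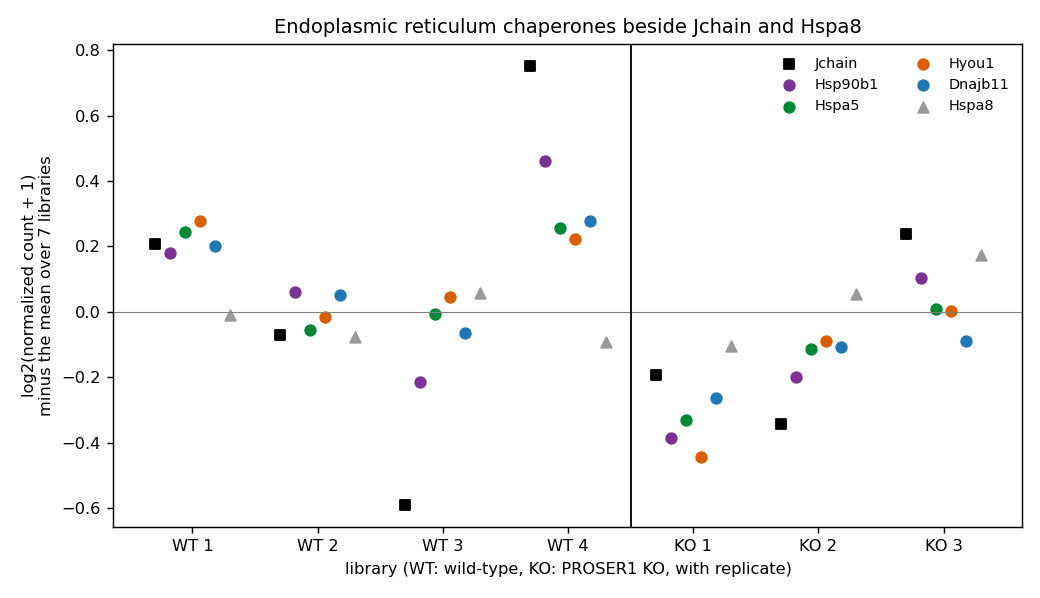
Deviation from the mean over 7 libraries, in log2(normalized count + 1), of 4 endoplasmic reticulum chaperones (circles), the plasma cell gene Jchain (squares) and the cytosolic Hspa8 (triangles) in each library. The circles are highest in wild-type replicates 1 and 4 and lowest in PROSER1 KO replicate 1, and the squares run from 151607 normalized counts in wild-type replicate 3 to 384345 in replicate 4.

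The region around Cryab held no other called gene. With few genes tested there and 0.258% of all tested genes called with limma, this says little about the region. Hspb2, a muscle small heat shock protein that starts from the same stretch of DNA in the opposite direction (chromosome 9, 50751078 to 50752354), overlaps 252 exon bases of Cryab (17.0%) and had 2.88, 1.80, 2.30 and 8.11 normalized counts in wild-type libraries, against 7.30, 0.846 and 1.92 in PROSER1 KO libraries, below the minimum for testing. The library kit keeps the strand, but whether the counting used it is not given in the sources used here, and reads of the overlap could then belong to either gene. Of the other annotated genes within 50 kb, Dixdc1 had a log2 fold change of -0.78 (adjusted p = 0.566 from limma), 1110032A03Rik of 0.03, Fdxacb1 of 0.12 and Alg9 of 0.05 (adjusted p = 0.947, 0.792 and 0.889 from limma), and 2310030G06Rik was at 0 to 9.62 normalized counts. The sign of 1110032A03Rik turned with single libraries left out (-0.04 to 0.07).

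Over the 7 libraries, the pattern of Cryab was most like those of Pgrmc1 (Pearson r = 0.983), Rps3a2 (0.979), Gm3375 (0.978), Acsl4 (0.974) and Palld (0.973), each highest in PROSER1 KO replicate 2. These coefficients are a description, since the 7 points share 2 groups and the 5 genes were picked as the highest of all tested, so that their group differences are given with no test. Palld, which encodes an actin-binding protein, had 331, 285, 287 and 253 normalized counts in wild-type libraries, against 545, 600.0 and 513 in PROSER1 KO libraries, a log2 fold change of 0.94. Gm3375 was at 0.81, Acsl4, which activates arachidonic acid, was at 0.23, and Pgrmc1 and Rps3a2 were at 0.08 and 0.13. Among the 10 genes, the one most like Cryab was Dnajb1 (r = 0.757), and the least like was Hspb1 (r = -0.418).

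Cryab is best known from lens, heart, skeletal muscle and glia, and markers of other cells were read beside it. Of 10 muscle markers, 3 were tested (1 positive, 2 negative, 0 called with limma), Myod1 and Myh1 were at 0 in every library, and the list summed to 58.6 to 158 normalized counts in wild-type libraries, against 86.3 to 130.4 in PROSER1 KO libraries. Of 17 stromal and vascular markers, 10 were tested, 8 positive and 2 negative with a median of 0.47. Over all tested genes 50.6% were positive. With limma 0 were called, beside 0.258% of all tested genes. Before adjustment 2 had a limma p-value under 0.05 (Pdgfrb and Emcn), against 9.73% of all tested genes. Acta2 and Cspg4 were at 0 in every library. The sums were 3227 to 4524 in wild-type and 4459.6 to 5492 in PROSER1 KO libraries. Most of each sum was Emcn and Pdgfrb (mean 2223 in wild-type and 2837 in PROSER1 KO libraries, adjusted p = 0.380 from limma). In the same order, Lepr averaged 13.8 and 26.3, and Col1a1 43.3 and 42.6. Emcn, an endothelial gene also found on stem cells, had 688 to 806 normalized counts in wild-type libraries, against 859 to 1077 in PROSER1 KO libraries (adjusted p = 0.233 from limma). The stroma gene Cxcl12 had 30.8, 3.61, 209 and 109 in wild-type libraries, against 111, 53.3 and 357 in PROSER1 KO libraries. In wild-type replicates 1 to 4 the median deviations of the stromal list were -0.26, -1.15, -0.04 and 0.50. In PROSER1 KO replicates 1 to 3 they were -0.13, 0.27 and 0.97. The part of these cells in the level of Cryab was not tested.

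Of the remaining lists, 9 of 10 macrophage markers were tested (median 0.26, sums of 1084 to 1607 and 1286 to 1739), 6 of 9 erythroid markers (median 0.01, 325 to 523 and 355 to 554), 9 granulocyte markers (median -0.03, 25631 to 29028 and 22724 to 28281) and 10 T and innate lymphoid markers (median -0.09, 6207 to 8793 and 5746 to 8806), and 0 of each were called with limma. Before adjustment, p-values were under 0.05 for 1 granulocyte marker (Ctsg), 1 T and innate lymphoid marker (Cd4) and 0 in the macrophage and erythroid lists. The 12 LSK and stem cell markers had 3 positive and 9 negative signs with 0 called by limma (1 at an unadjusted p-value under 0.05, Mecom, adjusted p = 0.282). Beside these counts, limma called 0.258% of all tested genes, and 9.73% had an unadjusted p-value under 0.05.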

How the data were processed

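LSK cell RNA was sequenced in 7 libraries, 4 of them wild-type. The authors used Trimmomatic to trim reads, STAR for mapping on mm10, featureCounts for counting read pairs (strand setting not given in the sources used here) and DESeq2 size factors for scaling. The deposited values are thus a normalized signal per gene, from which whole read pairs were recovered (100% within 0.01). No gene was removed for low values, and 0 columns of other samples were present.

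The 16251 genes whose mean reached 10 were fitted as log2(normalized count + 1) in limma 3.58.1 (R 4.3.3, eBayes with trend, two-sided, Benjamini-Hochberg adjusted). Fold changes of low genes are understated on this scale. Since the deposited unit is not counts, DESeq2 1.42.0 and edgeR 4.0.16 on recovered read pairs were alternatives. Procedures were tested on simulated data with the same spread setting for every gene, which real genes do not share. The p-values of limma set a group difference against the spread between these samples, with the variance of each gene drawn toward that of genes of like level.

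Positions and exon lengths come from GENCODE release M21 (GRCm38), the authors' annotation being release 25 by the methods and vM10 by the file header. Promoters come from RefSeq. Shared windows are 50-base stretches of a gene's transcripts also present in other transcripts.

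The members and lists were chosen with earlier results of these data known. Named genes were the 10 members, in each chaperone list every called gene and the 2 others of lowest p, the 3 of highest level per kb, the 5 of highest r to Cryab, genes within 50 kb of it, Proser1, and 2 immediate early genes. Genes from the marker and endoplasmic reticulum lists were named after their values were seen.

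Other settings tried were a pseudocount of 0.1 or 10, a minimum mean of 50 or none, eBayes robust or with no trend, TMM and quantile normalization, both count tools, calls without a fold minimum, a replicate block, each library left out, and Hspa1a and Hspa1b summed.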

Additional observations from a re-analysis of the deposited data

Results flagged for a closer look

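Among 39 named genes, the highest or lowest of the 4 wild-type libraries was far from the others in 1. Hsf2bp, which encodes a protein that binds Hsf2, had 73.9 normalized counts in wild-type replicate 2 against 60.9 to 62.6 in the other wild-type libraries, a gap of 0.871 of the range of the group. Chance alone flags about 1 in 20 groups. Groups of 3 were not tested in this way, so that the spread of Hspa1b and Hsph1 within PROSER1 KO libraries could not be judged by it.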

How the results depend on the processing

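The number of called genes was 42, and it was 17 with eBayes without trend, 80 with robust variance estimates, 165 with DESeq2 and 23 to 42 with 1 library left out. Of the 10 genes and of the 123 chaperone genes 1 was called, Cryab, and this number was 1 with pseudocounts of 0.1 and 10, no filter, robust estimates, quantile and TMM normalization, edgeR, DESeq2 and no fold change minimum. Cryab was chosen by its group difference, so that this count repeats the chosen values and is no support for them. Both numbers fell to 0 with a minimum mean of 50, under which Cryab was not tested, with eBayes without trend, and with the replicate block, and they were 0 to 1 with 1 library left out. The cause was not tested, except that fewer samples or genes entered by construction. The log2 fold change of Cryab was 1.85 to 2.54 over all alternatives. The labels name no pairing of samples by replicate number. Deviations of same-numbered libraries correlated at 0.023, 0.058 and -0.11, and not every sample correlated best with its own number. From so few libraries, these coefficients cannot decide whether same-numbered samples shared a sort or a day. In the replicate block, wild-type replicate 4 has no partner and drops out. The block gave 35 called genes in all, 0 of the 10 and 0 of the 123. With the block, the log2 fold change of Hsp90ab1 was -0.025 and that of Ubb -0.017. Of 644 log2 fold changes of 36 named genes under alternatives, 606 kept their sign and their side of the threshold. The sign turned for Hspa1b with a pseudocount of 10 (0.044), edgeR (0.39) and DESeq2 (0.38), and for Hsp90ab1 with quantile normalization (-0.10). With 1 library left out, values ran from -1.14 to 0.88 for Hspa1b, -0.52 to 0.10 for Hspb8, -0.26 to 0.13 for Hsph1, -0.063 to 0.025 for Hsf1, -0.025 to 0.046 for Hsp90ab1, -0.063 to 0.067 for Ubb and -0.038 to 0.073 for 1110032A03Rik. Depth limits Hspa1a, Hspa1b, Hspb1, Hspb8 and wild-type Cryab, with at most 39 read pairs in a library outside the PROSER1 KO values of Cryab.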
